A study of Bos taurus with 90 samples.

Results

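Cumulus cells (CCs), the granulosa cells that enclose the oocyte, were compared between healthy and other bovine antral follicles at the level of RNA. Of the 90 libraries of the series, 26 entered the comparison, 10 CC pools of healthy follicles and 16 CC pools of other follicles. The follicles were dissected from ovaries of Bos taurus cows and had passed a morphological screen. They fall into small (3.1 to 3.8 mm), medium (6.2 to 7.0 mm) and large (9.6 to 11.6 mm) follicles, with 3, 3 and 4 healthy and 5, 5 and 6 other follicles, and each follicle gave one pool of CCs, one sample of mural granulosa cells (MGCs) and one oocyte. A follicle counted as healthy where the study placed it in its healthy set, which was chosen on the transcripts of its MGCs and without a raised apoptosis score. The CC values played no part in that choice. The study took the other follicles as subordinate follicles at an early molecular stage of atresia. The 3 follicles that the study removed and the truncated CC library CS70701 were left out. Neither group was treated, and no genotype or age is given.

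Follicular atresia is the degeneration by which most antral follicles are lost, and it is best known from apoptosis of the mural layer. CCs are coupled to the oocyte by gap junctions and transzonal projections, through which they supply metabolites, and they respond to factors that the oocyte secretes. The mural layer lines the follicle wall and, together with the theca, contributes to hormone synthesis. The question of the comparison is whether the CCs of a follicle differ in step with the state of its mural layer.

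CC libraries were made by a full-length cDNA amplification (SMART-seq2) of small cell pools, so the counts include amplification and are not counts of molecules. Oocyte libraries were also made by SMART-seq2, whereas MGC libraries were made by standard bulk RNA-seq. Protocol and cell type therefore cannot be told apart where CCs are set beside MGCs. Total counts ranged from 8760201 to 37122994 in healthy and from 17076271 to 40180192 in other follicles. Genes detected, with at least 1 count, numbered 14076 to 18033 in healthy follicles, with a median of 16042, and 11872 to 18588 in other follicles, with a median of 15942. Libraries were compared by the Spearman correlation of log2(CPM + 1), where CPM is the count scaled to the total of the library. By the median correlation with the other CC libraries, 4 libraries stood apart, lying below 0.881 against a median of 0.932. These were CS50501 (0.778), CS71701 (0.842) and CL62803 (0.875) among the other follicles and CM72403 (0.867) among the healthy ones. The 10 most abundant genes took 26.3% of the counts in CS50501 and 21.3% in CS71701, above the 9.76% to 19.7% in the remaining CC libraries. The main results over all stages are given with and without these libraries, and the results by stage include them.

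The cell type was checked with oocyte-enriched and somatic gene sets drawn from the other cells, because the deposited table lists Ensembl identifiers without symbols. A mural-enriched set was drawn with the CC libraries themselves. The oocyte-enriched genes, at least 5 log2 units higher in oocytes than in MGCs, took 19.9% to 24.4% of the counts in oocytes and 0.0925% to 0.306% in MGCs. In CCs they took 0.295% to 0.513% in healthy and 0.242% to 0.540% in other follicles, so the CC pools lay close to the MGCs on this measure. The 439 somatic genes, defined in the opposite direction, took 13.6% to 17.5% in healthy and 13.1% to 18.1% in other follicles. The 53 mural-enriched genes, at least 5 log2 units higher in MGCs than in CCs, took a median of 1.51% in MGCs. In CCs their share ranged from 0.00434% to 0.0416% in healthy follicles and from 0.00573% to 0.0703% in other follicles. The low share in CCs follows from the choice of these genes and is no check of cell type. The range of each set thus overlapped between healthy and other follicles. The stage-adjusted difference, healthy minus other, was 0.11 on the log2 scale for the oocyte-enriched share, -0.38 for the mural-enriched share and -0.03 for the somatic share (exact permutation of health within stages, two-sided, p = 0.345, 0.355 and 0.561). With each library left out in turn, the oocyte-enriched difference ran from 0.06 without CM72404 to 0.16 without CM72403, the mural-enriched one from -0.63 without CM72403 to -0.20 without CL62802, and the somatic one from -0.05 without CL72101 to -0.0019 without CM72404. Without the 4 libraries that stood apart the mural-enriched difference was -0.72 (exact permutation, p = 0.0979). Total counts differed by -0.36 on the log2 scale, the healthy libraries being the shallower (exact permutation, p = 0.0955). With each library left out in turn this difference ran from -0.43 without CM71002 to -0.21 without CS62004, the shallowest library (exact permutation, unadjusted p = 0.049996 and 0.282). It was -0.23 without CM72403, the next shallowest (exact permutation, p = 0.270), and unadjusted p-values of 0.0467 and 0.0450 were reached without CL62803 and CL71802 (exact permutation). Both shallow libraries belong to healthy follicles, and the part of depth in the results was not tested. Genes detected differed by 250 (exact permutation, p = 0.630), by 37.5 without CS50501 and by 432 without CL62803, and the log2 share of the 10 most abundant genes by -0.06 (exact permutation, p = 0.687). With the tests of distance and likeness given later, 9 such values were tested, and the smallest p after Benjamini-Hochberg adjustment was 0.456 (exact permutation tests).

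The individual genes of CCs were then compared with stage as a block. No gene differed between healthy and other follicles by more than 2-fold at an adjusted p under 0.05 in edgeR's quasi-likelihood test, among 15109 genes tested (0% called). The smallest adjusted p was 0.0641. At an unadjusted p under 0.05 and more than 2-fold, 829 genes differed, or 5.49% of those tested, 450 of them higher (2.98%) and 379 lower (2.51%) in healthy follicles. At any fold, 1866 genes (12.4%) had an unadjusted p under 0.05. The median log2 fold change of all genes was 0.01 and the median size of the change was 0.38. The biological coefficient of variation between libraries was 0.744, which is on another scale than the log2 fold changes.

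**Figure D1:**
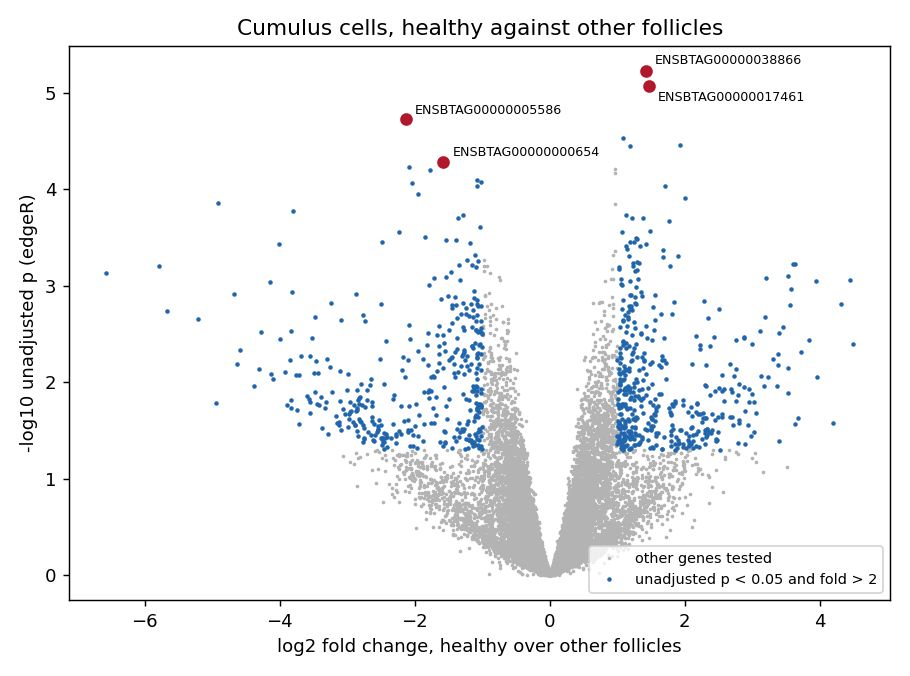
Each point is 1 of 15109 genes, placed by its log2 fold change in CCs (healthy over other follicles, 10 against 16 libraries) and by the -log10 of its unadjusted p in edgeR. Blue marks the 829 genes past 2-fold and an unadjusted p of 0.05, and red marks the 4 genes described by identifier, none of which passed after adjustment.

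The count of called genes depended on the tool. DESeq2 called 212 genes, 94 higher and 118 lower in healthy follicles, and limma voom with sample quality weights called 368, 259 higher and 109 lower. These tools had 122 calls in common, or 57.5% of those of DESeq2 and 33.2% of those of limma voom, all 122 with one direction in both, 69 higher and 53 lower. In edgeR the 122 genes had unadjusted p-values up to 0.0135 and adjusted p-values from 0.0641 to 0.293, with a median of 0.171. Without the 4 libraries that stood apart, edgeR called 27 genes, 12 higher and 15 lower in healthy follicles, with median log2 fold changes of 1.43 and -2.08. All 27 had that direction with all libraries included, with adjusted p-values of 0.0641 to 0.455. Leaving out CL62803 alone gave 26 calls, 17 higher and 9 lower, of which 16 were among the 27. Leaving out CL70503 or CL72101 gave 5 each, CL70703 gave 2, and CS50506, CS62004 or CL50505 gave 1 each, whereas the remaining libraries gave none when left out. The absence of calls with all 26 libraries was therefore not kept across tools, nor without some single libraries of small or large follicles.

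**Figure D2:**
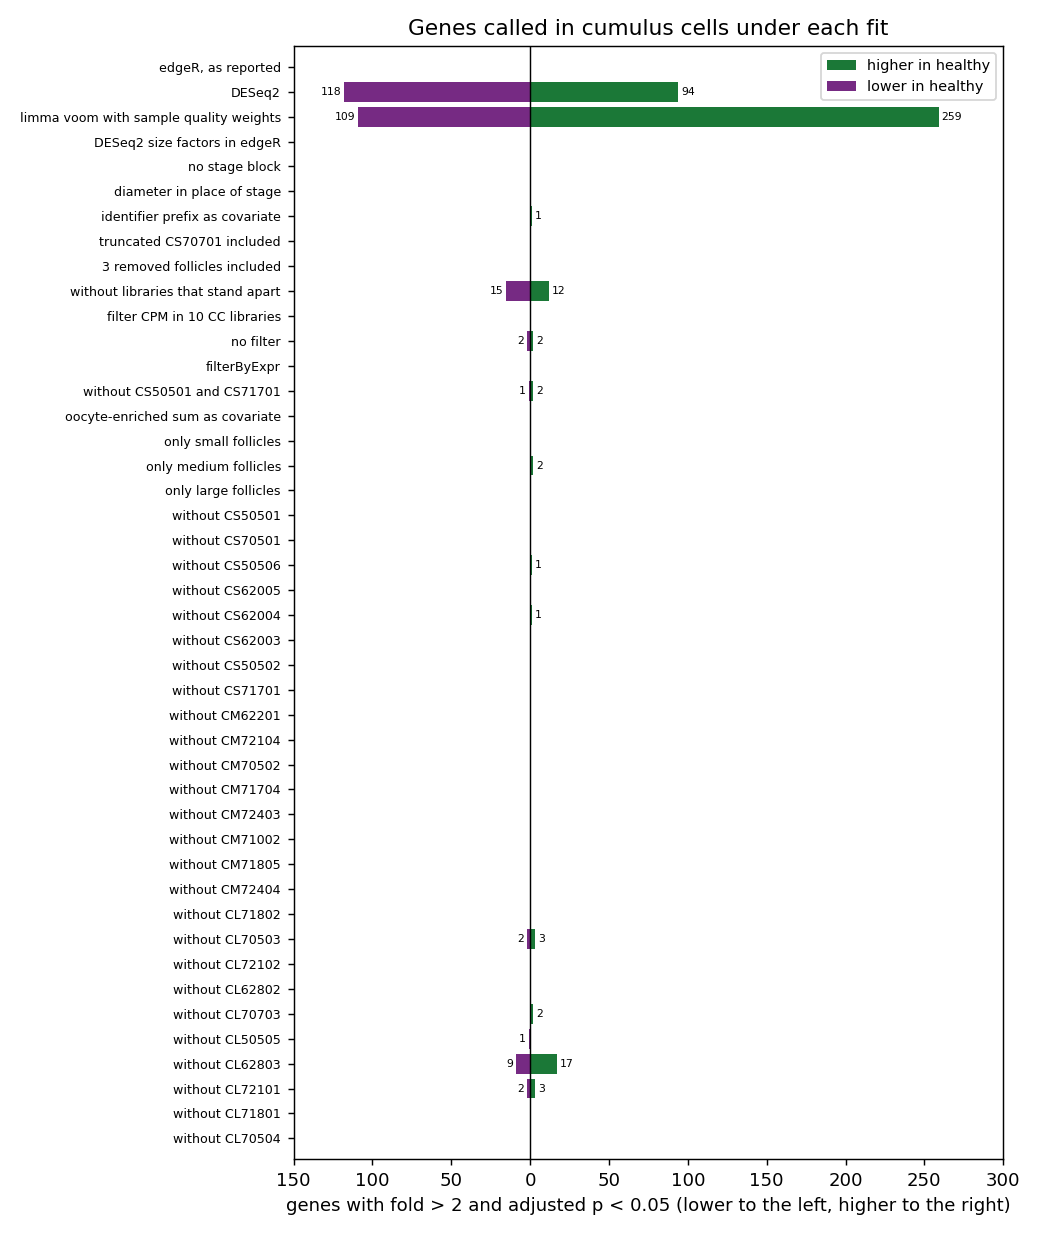
Bars give the number of genes with fold above 2 and adjusted p under 0.05 in CCs under each fit, higher in healthy follicles to the right and lower to the left. edgeR on all 26 libraries called 0 genes, DESeq2 94 and 118 and limma voom 259 and 109, and among the libraries left out one at a time CL62803 gave the most, 17 and 9.

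The files do not pair identifiers with gene names, so the genes closest to the threshold are given by identifier and without a known role. These are the pair with the smallest p in each direction among genes past 2-fold whose log2 CPM averaged 3 or more. This choice over the same libraries favours separation of the groups, and the share of all genes without overlap is not given. None of them passed the threshold in edgeR with all 26 libraries, and their edgeR values are given as such. All 4 were called by DESeq2 (adjusted p of 0.000371, 0.000895, 0.000326 and 0.000919 in the order given here) and by limma voom (0.00282, 0.00229, 0.00358 and 0.0101). Without the libraries that stood apart, edgeR called the first 3, each with an adjusted p of 0.0383. With each of the 26 libraries left out in turn, edgeR called them in 6, 4, 3 and 2 of the fits, with adjusted p-values of 0.0244 to 0.173 for the first, 0.0220 to 0.173 for the second, 0.0220 to 0.186 for the third and 0.0351 to 0.186 for the fourth.

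ENSBTAG00000038866 had a median of 35.9 CPM in healthy follicles, from 20.8 to 83.1, and of 12.7 CPM in other follicles, from 6.37 to 32.8. Every healthy library lay above the median of the others, and 15 of the 16 other libraries lay below all healthy ones, the exception being CS50506. In small follicles the healthy libraries had 20.8, 32.5 and 83.1 CPM and the others 7.51, 9.96, 10.1, 17.8 and 32.8 CPM. In medium follicles the healthy libraries had 38.9, 51.0 and 54.1 CPM against 11.4, 11.7, 18.3, 19.3 and 20.7 CPM. In large follicles they had 21.9, 31.3, 33.0 and 57.8 CPM against 6.37 to 14.9 CPM with a median of 12.7 in the others. Healthy and other libraries did not overlap in medium or large follicles and overlapped in small ones, a separation that the choice of the gene by its p favours. The log2 fold change was 1.43 ± 0.26 (SE, edgeR, adjusted p = 0.0641). Taken by size, it was 1.02 ± 0.47 for small, 1.48 ± 0.47 for medium and 1.68 ± 0.42 for large follicles (SE). In MGCs the medians were higher, at 129 CPM in healthy and 125 CPM in other follicles. The lowest MGC library, of an other follicle, had 69.0 CPM, below the highest CC library at 83.1 CPM. In oocytes its medians were 61.6 and 46.5 CPM with ranges that overlapped widely.

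ENSBTAG00000017461 had its highest medians in CCs, with 309 CPM in healthy follicles and 95.6 CPM in other follicles. Its medians were 4.40 and 1.79 CPM in MGCs, which were made by another protocol, and 3.90 and 1.54 CPM in oocytes. Its range in CCs was 108 to 720 CPM in healthy and 13.1 to 403 CPM in other follicles. It was also higher in large follicles, so the overlap lay between stages more than within them. Small healthy follicles had 108, 136 and 309 CPM, all above the 13.1, 40.8, 51.0, 69.9 and 83.4 CPM of the others. Medium healthy follicles had 252, 299 and 383 CPM, all above the 14.4, 62.1, 65.5, 108 and 139 CPM of the others. Large follicles overlapped, with 309, 333, 620 and 720 CPM in healthy ones and 114 to 403 CPM with a median of 242 in the others. The log2 fold change was 1.47 ± 0.28 (SE, edgeR, adjusted p = 0.0641), and within stages it was 1.39 ± 0.49, 1.98 ± 0.50 and 1.11 ± 0.44 (SE) from small to large.

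ENSBTAG00000005586 was lower in healthy follicles, with a median of 34.0 CPM from 9.59 to 78.0, against 134 CPM from 16.9 to 374 in the others. In small follicles the healthy libraries had 39.2, 48.1 and 78.0 CPM and the others 67.8, 77.3, 139, 208 and 337 CPM, with an overlap at 1 healthy library. In medium follicles the healthy libraries had 19.95, 23.4 and 28.8 CPM and the others 66.5, 151, 179, 281 and 374 CPM, without overlap. In large follicles the groups overlapped, with 9.59, 19.0, 43.1 and 47.6 CPM against 16.9 to 305 CPM with a median of 58.7. The log2 fold change was -2.13 ± 0.42 (SE, edgeR, adjusted p = 0.0873), and it was -1.97 ± 0.73, -3.18 ± 0.78 and -1.55 ± 0.62 (SE) from small to large. In MGCs, which were made by another protocol, its medians were higher, at 130 CPM in healthy and 660 CPM in other follicles. As the MGCs chose the healthy follicles, that difference is a description. The mural-enriched share lay between 0.00434% and 0.0703% in CCs, a low level that follows from the choice of that set. Its part in the CC values of this gene was not tested.

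ENSBTAG00000000654 had a median of 9.32 CPM in healthy follicles, from 4.66 to 14.5, and of 21.3 CPM in the others, from 1.88 to 54.4. The lowest value of all belonged to an other follicle, CL50505, and 11 of the 16 other libraries lay above every healthy one. In small follicles the healthy libraries had 12.7, 13.3 and 13.6 CPM, inside the 12.2, 14.5, 14.7, 20.8 and 54.4 CPM of the others. In medium follicles they had 4.66, 11.3 and 14.5 CPM against 13.8, 18.5, 36.6, 39.8 and 49.2 CPM, and in large follicles 5.03, 5.53, 7.15 and 7.32 CPM against 1.88 to 43.5 CPM with a median of 23.4. The log2 fold change was -1.58 ± 0.33 (SE, edgeR, adjusted p = 0.0873), and with each library left out in turn it ran from -1.68, without CL50505, to -1.47. In MGCs its medians were 21.5 CPM in healthy and 31.0 CPM in other follicles, with a log2 fold change of 0.10 ± 0.46 (SE), and in oocytes both medians lay below 1 CPM.

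**Figure D3:**
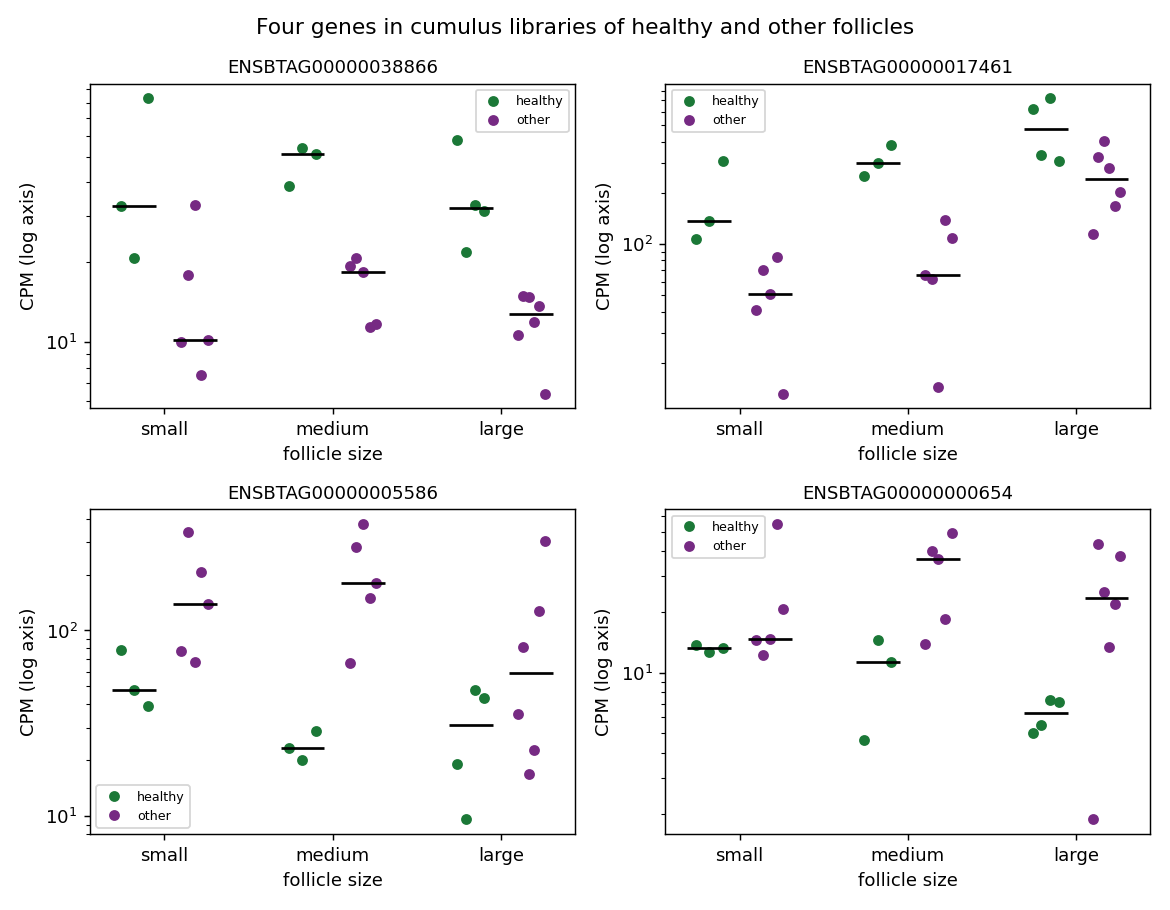
CPM (log axis) of 4 genes in each of the 26 CC libraries by follicle size, healthy follicles in green and other follicles in purple, with a black line at the group median. The upper genes sit higher in healthy follicles, with no overlap at medium size (38.9 to 54.1 against 11.4 to 20.7 CPM for ENSBTAG00000038866), and the lower genes sit lower. The choice of the genes by their p over these libraries favours this.

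The first 3 digits of the follicle identifier, whose meaning is not stated, were shared by healthy and other follicles in only 3 cases, with 10 follicles in all. For each of the 4 genes the healthy follicle differed from the other follicles of its prefix in the direction of the whole comparison in all 3 prefixes, after the stage mean was subtracted. The choice of the genes by their p over these same follicles favours this. The differences were 1.54 to 2.33 for ENSBTAG00000038866, 0.34 to 1.52 for ENSBTAG00000017461, -1.92 to -1.03 for ENSBTAG00000005586 and -2.12 to -1.02 for ENSBTAG00000000654, in log2(CPM + 1). With the prefix as a covariate beside stage, edgeR called 1 gene, higher in healthy follicles, which was none of these 4. In that fit their log2 fold changes were 2.36 ± 0.48, 1.53 ± 0.41, -1.40 ± 0.67 and -1.35 ± 0.51 (SE) in the same order. Their adjusted p-values were 0.232, 0.333, 0.603 and 0.485 (edgeR). Healthy and other follicles of one size shared a prefix among large follicles only. In small and in medium follicles no prefix held both, so prefix and health cannot be told apart there, and this covers every result given for these sizes alone. The results over all stages include these follicles. There too, prefix and health can be told apart only within the 3 prefixes that held both.

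Stages were then taken one by one in a common fit. In edgeR, 1 gene was called in medium follicles (0.00662% of those tested). It was higher in healthy ones by 3.88 ± 0.55 on the log2 scale (SE, edgeR, adjusted p = 0.00167). It is not among the 4 genes described. No gene was called in small or large follicles (0% each), where the smallest adjusted p was 0.132 and 1. At an unadjusted p under 0.05 and more than 2-fold, small follicles had 1733 genes (11.5%, 650 higher and 1083 lower), medium follicles 1492 (9.87%, 966 higher and 526 lower) and large follicles 503 (3.33%, 159 higher and 344 lower). These counts moved when each size was fitted alone, to 1027 for small, 2048 for medium and 530 for large ones, so small and medium follicles changed their order. The 2 libraries of small follicles that stood apart, CS50501 and CS71701, both belong to other follicles, and these counts were not made without them. No gene passed the test of a difference in the health effect between stages (edgeR, adjusted p of at least 0.340), while 1109 genes had an unadjusted p under 0.05 and DESeq2 called 1 gene.

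The stages share no follicle, so the direction of a gene's difference in one stage could be read in the others. Some identifier prefixes occur in several stages, and follicles of different stages may share a cow. The part of this in the agreement between stages was not tested. Of the 1733 genes past 2-fold and an unadjusted p of 0.05 in small follicles, 63.2% had the same direction in medium and 58.2% in large follicles, against 52.7% and 55.6% of all genes. Of the 1492 such genes of medium follicles, 62.3% had the same direction in small and 58.3% in large follicles, against 52.7% and 50.2% of all genes. Of the 503 of large follicles, 64.4% had the same direction in small and 58.1% in medium follicles, against 55.6% and 50.2%. The log2 fold changes of all 15109 genes correlated weakly across genes between stages, with Spearman's rho of 0.11 for small and medium, 0.16 for small and large and 0.07 for medium and large follicles. These are descriptions across genes of common libraries, with the libraries that stood apart included.

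Of the 829 genes of the pooled comparison, 680 had one direction in all 3 stages, which the choice of genes favours, 348 of the 450 higher and 332 of the 379 lower in healthy follicles. An unadjusted p under 0.05 was kept by 436 of the 829 whichever single library was left out, and by 623 without the 4 libraries that stood apart. Among them 330 averaged a log2 CPM of 3 or more, a level at which 173 of 8649 genes tested were higher (2%) and 157 lower (1.82%). Of the 6460 genes below that level, 277 were higher (4.29%) and 222 lower (3.44%).

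Genes that differed between healthy and other follicles in MGCs were next read in CCs. The MGC lists are a description of the MGCs that chose the follicles, 330 genes higher and 967 lower in healthy follicles at 2-fold and an adjusted p under 0.05 in edgeR, and all were tested in CCs. The libraries differ between the cell types and the follicles are the same. Of the 330 genes higher in MGCs, 22 were also higher in CCs at an unadjusted p under 0.05 and 2-fold (6.67%, against 2.98% of all genes) and 3 were lower (0.909%, against 2.51%). Their median log2 fold change in CCs was 0.12, against 0.01 for all genes, and 192 of 330 (58.2%) were above 0, against 50.5%. Of the 967 genes lower in MGCs, 57 were lower in CCs (5.89%, against 2.51%) and 29 higher (3.00%, against 2.98%), with a median of -0.07. None was called in CCs by edgeR after adjustment. Among genes with an adjusted p, DESeq2 called 7 of 314 genes of the first list higher and 2 lower, or 2.23% and 0.637%, and 16 of 695 genes of the second list lower and 2 higher, or 2.30% and 0.288%, against 0.74% higher and 0.929% lower of all genes. Limma voom called 27 higher (8.18%) and 1 lower (0.303%) of the first list, and 18 lower (1.86%) and 12 higher (1.24%) of the second, against 1.71% higher and 0.721% lower of all genes.

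Without the 4 libraries that stood apart, 76.1% of the first list lay above 0 with a median of 0.26, and 42.0% of the second with a median of -0.17, against 50.7% and 0.01 for all genes. Leaving out single libraries moved the medians between 0.05 and 0.17 for the first list and between -0.14 and 0.01 for the second. The shares differed by stage. In large follicles 79.4% of the first list and 32.6% of the second were higher in healthy CCs, against 47.7% of all genes, and in medium follicles 63.9% and 49.9%, against 50.5%. In small follicles the first list lay the other way, with 40.0% higher and a median of -0.29, and the second had 50.4% higher, against 48.0% of all genes. The other small follicles include CS50501 and CS71701, which stood apart, and the shares by stage were not made without them. No test was made of the difference between stages for these lists. Of the 53 mural-enriched genes, 9 are in the second list and 0 in the first. The 53 genes themselves had a median log2 fold change of -0.40 in CCs, with 1 higher (1.89%, against 2.98% of all genes) and 5 lower (9.43%, against 2.51%) at an unadjusted p under 0.05 and 2-fold, and their part in the result of the lists was not tested. The oocyte-enriched genes, 230 above and 275 below 0, had a median of -0.07, with 16 higher (3.17%) and 14 lower (2.77%). The 439 somatic genes had a median of 0.00, with 25 higher (5.69%) and 33 lower (7.52%). These somatic genes were chosen without the health groups. Their share lower in CCs was above that of the second list (5.89%), and their share higher was below that of the first list (6.67%).

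**Figure D4:**
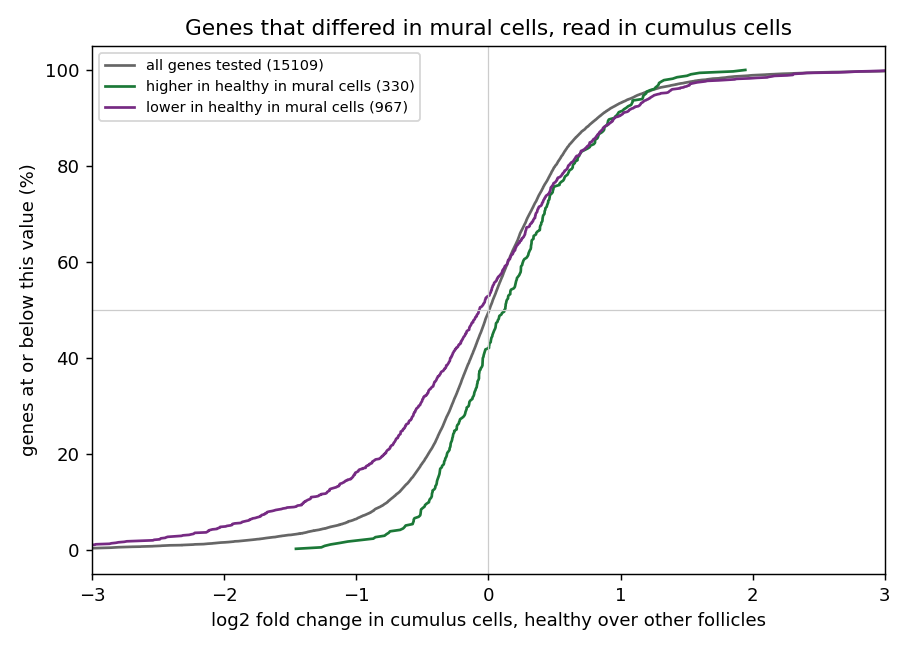
Cumulative share of genes (%) by their log2 fold change in CCs, healthy over other follicles, for all 15109 genes tested (grey), the 330 genes higher (green) and the 967 genes lower (purple) in healthy follicles in MGCs. The axis is limited to -3 to 3. The green curve lies to the right of the grey one near 0 (median 0.12 against 0.01) and the purple curve lies to its left (median -0.07), with the wider lower tail.

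Finally the CC libraries were compared as wholes, to see whether those of other follicles varied more. The distance between 2 libraries, 1 minus Spearman's rho, had a mean of 0.0891 over the 35 within-stage pairs of other follicles and of 0.0662 over the 12 pairs of healthy follicles. The difference of 0.0229 was not past the threshold (exact permutation of health within stages, two-sided, p = 0.369). Small follicles held the contrast. Their 3 healthy pairs lay at 0.0249, 0.0275 and 0.0288, below all 10 pairs of other follicles, which ranged from 0.0457 to 0.215 with a median of 0.122. The 3 healthy small follicles share an identifier prefix. In medium follicles the medians were 0.0723 for healthy and 0.0626 for other pairs, and in large follicles 0.0812 and 0.0824, with overlapping ranges. Without the 4 libraries that stood apart the difference was 0.00438 (exact permutation, p = 0.750). Gene by gene, the spread around the stage mean was larger in other follicles for 69.8% of 14948 genes, with median SDs of 0.721 and 0.531 in log2(CPM + 1). Without the 4 libraries this share was 59.1%, with 0.555 and 0.4929. The groups differ in size, and the share that equal spreads would give was not determined.

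**Figure D5:**
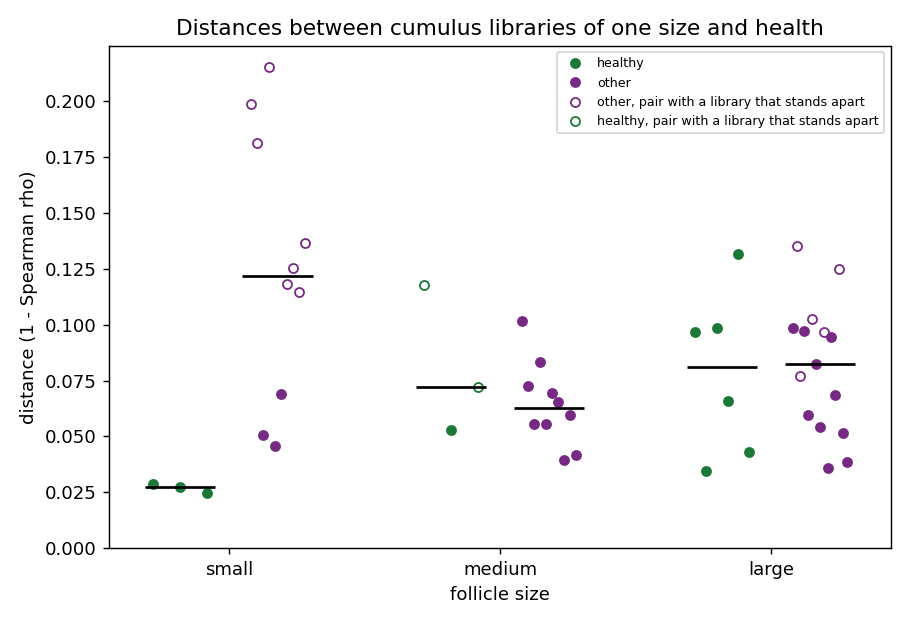
Each point is a pair of CC libraries of the same size and health, placed by 1 minus Spearman's rho, with a black line at the median, and open points are pairs with one of the 4 libraries that stood apart. The 3 healthy small pairs lie at 0.0249 to 0.0288, below all 10 pairs of other small follicles, 7 of which hold such a library.

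The separation of the groups was measured as the share of the within-stage squared Euclidean distance that lies between healthy and other follicles. It was 20.4%, against a median of 12.1% over all 658560 arrangements of health within stages (exact permutation, one-sided, p = 0.101). It was 19.3% without CS50501 (exact permutation, p = 0.0367), 25.0% without CS70501 (exact permutation, p = 0.0427), and 18.3% without the 4 libraries that stood apart (exact permutation, p = 0.121), so single libraries placed it on either side of the threshold. The likeness of a CC pool to the oocyte of its own follicle was 0.437 to 0.495 in healthy follicles, with a median of 0.481, and 0.436 to 0.503 in other follicles, with a median of 0.461 (Spearman's rho over genes). The stage-adjusted difference was 0.00351 (exact permutation, two-sided, p = 0.620). The likeness to the MGCs of the own follicle was 0.741 to 0.879 with a median of 0.828 in healthy and 0.658 to 0.8288 with a median of 0.752 in other follicles. It is given as a description, since the MGCs chose the follicles and their libraries were made by another protocol.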

How the data were processed

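RNA-seq libraries of CCs, MGCs and oocytes were read from one table. The deposited values are raw counts per Ensembl gene that the authors made with featureCounts (Subread) over exons of ARS-UCD1.2. The paper names STAR and the submitters' processing notes name HISAT2 2.2.1, and the aligner behind the table stays unknown. Each of the 90 columns was mapped to a sample. In the CC libraries 61.1% to 76.7% of counts from 1 to 20 were even, and totals may overstate the independent observations. The sources used here pair no identifier with a symbol (0 matched), so the 29 planned gene lists, the checks of named markers and the reading of health genes in MGCs by symbol were not run, and no sequence is shown. The members, lists and rules were chosen with earlier results of these data known. The oocyte-enriched, somatic, mural-enriched and MGC lists and the single values per library were chosen after the data were seen.

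Of 27270 genes, 15134 passed a filter that asked for CPM > 1 in 15 or more of the retained libraries of a single cell type, and the 15109 with a count in the 26 libraries were tested. edgeR 4.0.16 in R 4.3.3 was used with TMM factors, glmQLFit and glmQLFTest, stage and health as terms, and Benjamini-Hochberg adjustment over all genes tested. A call needed a fold above 2 and an adjusted p under 0.05. Stage contrasts and the test between stages came from fits of stage by health. The alternatives were DESeq2 1.42.0, limma 3.58.1 (voom with quality weights), other filters, size factors, covariates and sets of libraries, and leaving out each library. The genes described were the 2 with the smallest p in each direction past 2-fold and a mean log2 CPM of at least 3, since no gene was called. The enriched sets also needed a mean of at least 10 CPM in the cell type that defines them. A library stood apart where its median rho lay more than 3 scaled MADs below the median. Permutation tests enumerated all 658560 arrangements of health within stages in Python 3.11.15 with numpy 2.4.6, and their smallest possible p is 1.52e-06. The fits and the permutation code were tested on simulated data. Each library is a follicle. The paper collected follicles in batches of few ovaries, each batch yielding follicles of every size, so some follicles of the series share a cow. The labels give neither cow nor batch. The tests treated follicles as independent, so p-values measure the spread between follicles and not between animals.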

Additional observations from a re-analysis of the deposited data

Results flagged for a closer look

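In 52 groups of 4 to 6 libraries, 7 values lay far from the rest of their group by Dixon's test, which chance alone would give in about 5% of groups. Among large healthy follicles, CL70703 had a total of 17525509 counts, far below the others, and CL72101 had 17.0% of its counts in the 10 most abundant genes, above the others. Among large other follicles, CL50505 had 15.9% of its counts in those 10 genes and CL62803 had 18588 genes detected, both above the rest. The mural-enriched share was 0.0703% in CL62802 among large other follicles and 0.0171% in CS70501 among small other follicles, each the highest of its group. The likeness to the own oocyte was highest in CL70503 among large other follicles, with a rho of 0.487. Of these libraries, CL62803, CL72101, CL70503, CL70703 and CL50505 are among those that gave calls in edgeR when left out, and why was not tested.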

How the results depend on the processing

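Of 43 alternatives to the edgeR fit, 29 kept the count of 0 called genes. The others gave 212 (DESeq2), 368 (limma voom), 27 (without the libraries that stood apart), 4 (no filter), 3 (without CS50501 and CS71701, added after seeing the data), 2 (only medium follicles) and 1 (identifier prefix as covariate), and 0 to 26 with each library left out. The cause of the difference between tools was not tested. Genes past 2-fold at an unadjusted p under 0.05, 829 in all, were 2248 with no filter, where 24937 genes were tested, 1027, 2048 and 530 with only small, medium or large follicles, and 713 to 1041 with each library left out. The difference between stages gave 0 calls, and 1 with DESeq2. The 4 described genes kept their direction in every alternative, with log2 fold changes of 1.01 to 2.36, 1.07 to 1.94, -3.23 to -1.40 and -1.80 to -1.27 in the order described. With the truncated library the smallest adjusted p was 0.427, against 0.642 in small and 0.971 in large follicles alone, and 407 genes were higher and 237 lower at an unadjusted p. With the 3 removed follicles added, 164 were higher and 531 lower, against 450 and 379, so the split by direction depends on these samples. Without the stage block it was 433 and 595, and with diameter in its place 440 and 431. With the oocyte-enriched sum as a covariate, added after seeing the data, it was 483 and 288. The spread difference was 0.0114 to 0.0371 with each library left out, with no p under the threshold. The difference in genes detected turned to -57.1 without CS50501 and CS71701, and that in the share of the 10 most abundant genes, -0.06 in log2, turned to 0.0724 without these and 0.0178 without the libraries that stood apart, and ran from -0.115 to 0.00662 with each library left out, the highest being without CS50501. Each follicle was either healthy or other, so the comparison of CCs was not paired. The identifier prefix, which some follicles share, entered the tests only as a covariate. Depth limits the low genes most, and the healthy libraries held the shallowest library of the 26.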
